A study of Homo sapiens with 6 samples.

Results

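The secreted chemokines CXCL1, CXCL2, CXCL3, CXCL5, CXCL6, CXCL8, CCL20 and CCL2 were measured in T24 bladder cancer cells exposed to oxidized low-density lipoprotein (ox-LDL). A probe set was taken when the annotation of the array platform gave it one of these symbols, a rule that uses no measured value. The symbols themselves, and the gene lists used below, were chosen with earlier results of these data known. All 8 of these genes were found, each with 1 probe set, among 17687 genes that the annotation names. T24 is an established human line from a bladder carcinoma, and ox-LDL is a cholesterol-carrying plasma particle with oxidized lipids and protein. The ox-LDL group held 3 samples of T24 cells given 20 µg/mL ox-LDL for 24 h, and the vehicle group held 3 samples of T24 cells given vehicle for 24 h. Both groups had been kept without serum for 12 h before treatment, and each sample was measured on 1 array. Whether the 3 samples of each group came from different cultures is not labelled, so p-values measure only how far these samples spread, and that spread may be technical. The free-text description field names G9a siRNA and control siRNA for these arrays, while titles, sources and treatment fields name ox-LDL and vehicle, which were followed. EHMT2, the gene of G9a, read 8.34, 8.26 and 8.06 on the ox-LDL arrays, against 8.005, 7.91 and 7.63 on the vehicle arrays (log2 expression), a difference of 0.37 (SE 0.12, limma adjusted p = 0.125) that was not called.

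All values are log2 expression from the authors' RMA summary, so a difference of 1 is a 2-fold change. Array medians lay between 7.11 and 7.18. Vehicle replicate 3 stood apart, with a correlation across probe sets of 0.979 to 0.988 with the other arrays, against 0.992 to 0.997 among the other 5. The 95th percentile of the negative controls, 5.09, is used below as the level of background. KRT7, KRT8, KRT18 and VIM, the highest of 7 markers of epithelium and of this line, had group means of 11.9 to 12.7. KRT19 averaged 7.78 with ox-LDL and 7.67 with vehicle, and EPCAM 5.61 and 5.48. CDH1, the epithelial cadherin, lay below background, as did the urothelial markers UPK1B and UPK3A. Of 30 measured markers of epithelium, urothelium, leukocytes, endothelium and fibroblasts, 0 passed the limma test and 5 had an unadjusted p under 0.05. Over all 21448 probe sets 6.77% passed, and the share under that unadjusted p was not counted. Summed leukocyte markers had log2 values of 9.45 to 9.55 with ox-LDL and 9.55 to 9.83 with vehicle, with 3 of the 9 (PTPRC, LYZ and FCGR3B) at background and the other 6, among them CD68 and CD14, above it. Summed fibroblast markers had log2 values of 9.06 to 9.18 with ox-LDL and 9.22 to 9.80 with vehicle. Summed epithelial markers had 14.29 to 14.33 with ox-LDL and 14.19 to 14.28 with vehicle. The part of these small shifts in the chemokine results was not tested.

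Chemokines are small secreted proteins that bind receptors on leukocytes and guide their movement. CXCL1, CXCL2, CXCL3, CXCL5, CXCL6 and CXCL8 carry a Glu-Leu-Arg (ELR) motif before their first cysteines, bind CXCR2, in the case of CXCL6 and CXCL8 also CXCR1, and attract neutrophils. CCL20 binds CCR6 on lymphocytes and dendritic cells, and CCL2 binds CCR2 and attracts monocytes. In epithelial cells, interleukin 1 and Toll-like receptor signals switch on most of these genes through the transcription factor NF-kB, and their mRNAs are short-lived because of AU-rich elements. Bladder epithelium is known to release CXCL8 and related chemokines during urinary infection.

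The promoter sequences are shown because NF-kB is the best-known regulator that these genes have in common. Its part in their change was not tested. Each line gives the 100 bases just before the RefSeq transcription start on assembly GRCh38.p14, 5′ to 3′ on the strand of the gene, and capitals mark matches to an NF-kB motif or to TATAAA.
CXCL1 (chr4:73869293-73869392, plus strand): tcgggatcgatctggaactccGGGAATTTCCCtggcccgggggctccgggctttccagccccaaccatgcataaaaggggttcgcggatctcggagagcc
CXCL2 (chr4:74099196-74099295, minus strand): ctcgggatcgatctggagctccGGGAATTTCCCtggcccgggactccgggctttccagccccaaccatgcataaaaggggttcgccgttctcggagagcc
CXCL3 (chr4:74038690-74038789, minus strand): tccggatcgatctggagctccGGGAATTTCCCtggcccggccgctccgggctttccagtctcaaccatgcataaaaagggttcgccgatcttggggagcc
CXCL5 (chr4:73998678-73998777, minus strand): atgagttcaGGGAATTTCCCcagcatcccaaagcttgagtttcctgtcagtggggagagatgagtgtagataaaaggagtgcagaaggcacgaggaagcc
CXCL6 (chr4:73836578-73836677, plus strand): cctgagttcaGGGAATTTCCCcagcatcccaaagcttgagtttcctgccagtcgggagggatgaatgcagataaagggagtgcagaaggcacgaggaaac
CXCL8 (chr4:73740469-73740568, plus strand): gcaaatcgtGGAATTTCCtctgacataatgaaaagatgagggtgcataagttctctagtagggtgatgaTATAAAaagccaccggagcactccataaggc
CCL20 (chr2:227813742-227813841, plus strand): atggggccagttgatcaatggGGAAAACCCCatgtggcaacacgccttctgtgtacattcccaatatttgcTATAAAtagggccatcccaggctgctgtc

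Promoters of 250 bases before to 50 bases after the start were searched on both strands, and 7 of the 8 genes had one, CCL2 being the exception. The NF-kB motif GGAATTTCC was found in 6 of the 7, all but CCL20, against 0.461% of the 35116 promoters in the table. It began 78 bases before the start in CXCL1 and CXCL3, 77 in CXCL2, 90 in CXCL5, 89 in CXCL6 and 91 in CXCL8. The matches are not independent. The promoters of CXCL1, CXCL2 and CXCL3 were 69.8% to 82.5% identical to each other, and those of CXCL5 and CXCL6 83.1%. A wider NF-kB consensus, which overlaps that motif, matched CXCL1, CXCL2, CXCL3, CXCL5, CXCL6 and CCL20, and 5.91% of all promoters. The CCL20 match lay on the minus strand, at 79 to 70 bases before the start. The AP-1 motif TGANTCA matched CXCL8 alone of the 7 (7.71% of all promoters), and the C/EBP motif TTGCNNAA matched CXCL2 alone (10.5%). TATAAA matched CXCL8 and CCL20 and 11.5% of all promoters. A match describes letters in this window and is no measure of binding. Other forms of the AP-1, C/EBP and TATA sites were not searched, so a missing match does not mean a missing site.

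With ox-LDL, 7 of the 8 chemokines were lower and 0 were higher (limma, Benjamini-Hochberg adjusted p under 0.05), while 3.29% of all 21448 probe sets were called lower, 3.48% higher and 6.77% either way. At an adjusted p under 0.01, 6 of the 8 were lower against 1.18% of all probe sets, and 6 met the study's own selection (unadjusted p of at most 0.001, fold of at least 1.5) against 1.31%. CCL20, CXCL3 and CXCL8 had the 3 largest differences of the 8, -2.38, -2.13 and -1.97 on the log2 scale. CXCL2, CXCL5 and CXCL1 followed with -1.77, -1.64 and -1.22, CXCL6 differed least of those that passed, and CCL2 did not pass. The median difference of the 8 was -1.70, against -0.03 over all probe sets. All 3 ox-LDL arrays lay below all 3 vehicle arrays for the same 7 genes, an ordering that 17.7% of all probe sets showed. A difference of -1 or lower was seen for 6 of the 8, which 0.42% of all probe sets reached. In bulk RNA, fewer cells of a type and less RNA per cell cannot be told apart.

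**Figure D1:**
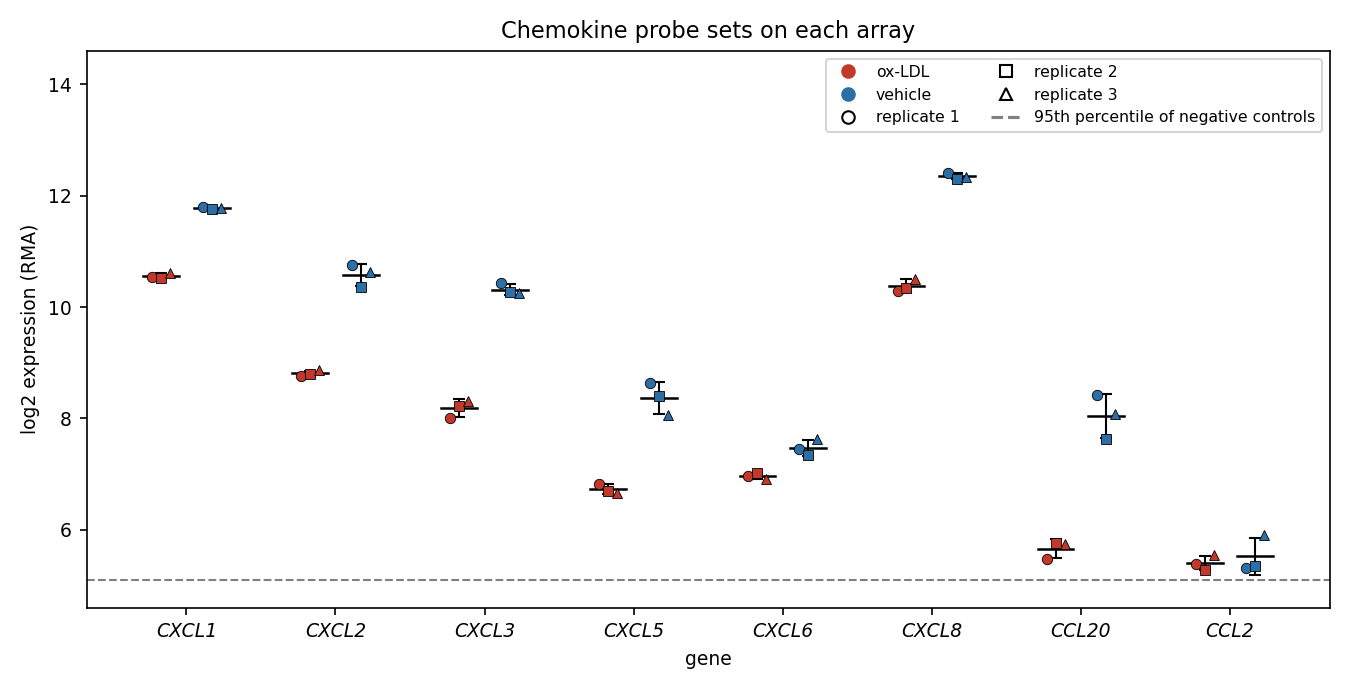
Log2 expression (RMA, vertical axis) of the 8 chemokines on each array, ox-LDL in red to the left of vehicle in blue, with circles, squares and triangles for replicates 1, 2 and 3, bars for the mean ± SD (n = 3 each), and a dashed line at the 95th percentile of negative controls, 5.09. The groups are apart for 7 genes and overlap for CCL2, whose points lie just above the dashed line.

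CXCL8, interleukin 8, is a human neutrophil attractant that acts on both CXCR1 and CXCR2. It read 10.29, 10.35 and 10.51 on the ox-LDL arrays, against 12.41, 12.30 and 12.34 on the vehicle arrays. The highest ox-LDL array was 1.79 below the lowest vehicle array, so the groups were far apart relative to their spread. The mean was 10.38 ± 0.12 with ox-LDL and 12.35 ± 0.06 with vehicle (SD, n = 3 each). This is a 3.91-fold lower level (95% confidence interval 3.40 to 4.50), with a limma adjusted p of 0.00026, and 10 of the 17687 named genes had a lower difference.

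CXCL1, CXCL2 and CXCL3 encode near-identical growth-regulated chemokines that act on CXCR2. CXCL1 read 10.54, 10.52 and 10.61 on the ox-LDL arrays, against 11.79, 11.76 and 11.78 on the vehicle arrays. Its arrays were very close within each group, with SDs of 0.05 with ox-LDL and 0.01 with vehicle, and the level was 2.33-fold lower (95% confidence interval 2.09 to 2.61, limma adjusted p = 0.000482). CXCL2 read 8.77, 8.80 and 8.86 on the ox-LDL arrays, against 10.75, 10.36 and 10.63 on the vehicle arrays. The vehicle arrays scattered more than the ox-LDL arrays, with replicate 2 the lowest of them, and the gap between the groups was still 1.50. CXCL2 was 3.40-fold lower (95% confidence interval 2.84 to 4.08, limma adjusted p = 0.00076). CXCL3 read 8.01, 8.23 and 8.32 on the ox-LDL arrays, against 10.43, 10.26 and 10.25 on the vehicle arrays. It had the widest gap between the groups of the 8 genes, 1.93, and was 4.37-fold lower (95% confidence interval 3.68 to 5.18, limma adjusted p = 0.000317). Transcripts of the 3 genes may hybridise to each other's probes, which was not checked, so how the change divides among them is uncertain.

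CXCL5 and CXCL6 are close relatives known from epithelial cells, CXCL6 also as granulocyte chemotactic protein. CXCL5 read 6.83, 6.70 and 6.65 on the ox-LDL arrays, against 8.63, 8.40 and 8.07 on the vehicle arrays. The vehicle arrays were spread over more than the ox-LDL arrays, and the groups stayed 1.24 apart. CXCL5 was 3.11-fold lower (95% confidence interval 2.45 to 3.96, limma adjusted p = 0.00239). CXCL6 read 6.96, 7.02 and 6.91 on the ox-LDL arrays, against 7.44, 7.35 and 7.63 on the vehicle arrays. The groups were only 0.32 apart, and the level was 1.42-fold lower (95% confidence interval 1.22 to 1.66, limma adjusted p = 0.0265). Leaving out any 1 ox-LDL array ended the call for CXCL6, with adjusted p of 0.118, 0.1001 and 0.1197 without replicates 1, 2 and 3, as did leaving out vehicle replicate 1 (adjusted p = 0.0642). Its difference kept its sign, between -0.57 and -0.43 with 1 array left out. The 300-base promoters of CXCL5 and CXCL6 were 83.1% identical in a global alignment, the highest of the 21 pairs, ahead of CXCL1 and CXCL3 with 82.5%.

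CCL20, the only known chemokine ligand of CCR6, had the largest difference of the 8. It read 5.47, 5.76 and 5.75 on the ox-LDL arrays, against 8.42, 7.63 and 8.08 on the vehicle arrays. The ox-LDL arrays lay not far above background, and the vehicle arrays scattered more than for any other of the 8 genes (SD 0.16 with ox-LDL and 0.39 with vehicle). CCL20 was 5.20-fold lower (95% confidence interval 3.75 to 7.20, limma adjusted p = 0.00199), and only 4 named genes had a lower difference. CCL2, the monocyte attractant, read 5.39, 5.28 and 5.54 on the ox-LDL arrays, against 5.32, 5.35 and 5.90 on the vehicle arrays. The groups overlapped near background, and the highest value was that of vehicle replicate 3. The difference of -0.12 had a 95% confidence interval of -0.52 to 0.28 (limma adjusted p = 0.667). Without vehicle replicate 3 it was 0.07 (adjusted p = 0.645), so no direction was settled for CCL2.

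**Figure D2:**
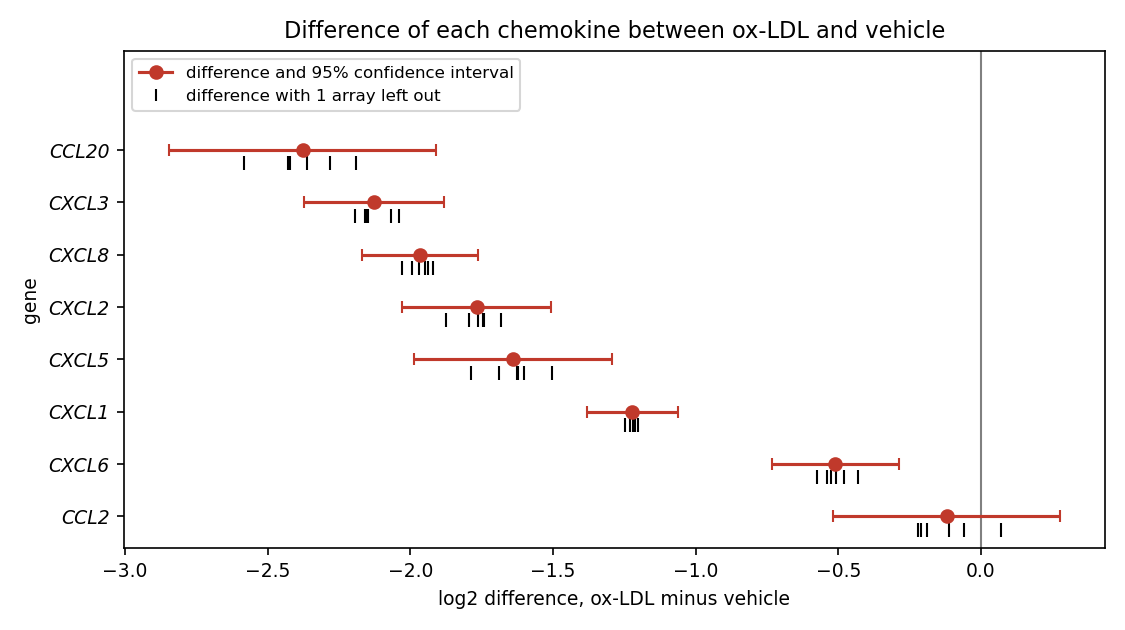
Log2 difference of each chemokine, ox-LDL minus vehicle (horizontal axis), with the 95% confidence interval of the limma model as a red bar and the values with 1 array left out as black ticks. The intervals of 7 genes lie below 0, CCL20 lowest at -2.38, and that of CCL2 spans 0.

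Log2 ratios of probe sets within each array were set between the groups, CXCL8 serving as the common partner. A ratio's level has no meaning across probe sets, and only its shift between ox-LDL and vehicle is described, which probe compression near background, as for CCL2, can also move. The log2 ratio of CXCL1 to CXCL8 was 0.18 ± 0.08 with ox-LDL and -0.57 ± 0.04 with vehicle (SD, n = 3 each). The ratio moved by 0.75, and the groups did not overlap. Against CXCL8, the ratio moved by 1.46 for CXCL6 and by 1.85 for CCL2, both higher with ox-LDL on all 3 arrays. CXCL2 and CXCL3 moved little against CXCL8, by 0.20 and -0.16, while CXCL5 (0.33) and CCL20 (-0.41) had overlapping ratios. Within the near-identical trio, the ratio of CXCL1 to CXCL3 was 2.37 ± 0.14 with ox-LDL and 1.47 ± 0.09 with vehicle (SD, n = 3 each), a shift of 0.91. The ratio of CXCL1 to CXCL2 moved by 0.55 and that of CXCL2 to CXCL3 by 0.36, again without overlap. Of 10 ratios, 8 reached p = 0.1 in the two-sided exact permutation test, the smallest that 3 arrays against 3 allow, and the other 2 had p = 0.2 (adjusted 0.125 and 0.2 over the 10). The test could therefore not pass at this size, and unequal change is not shown by it. No shift of a ratio between the groups changed its sign when any 1 array was left out.

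CXCL8, CXCL6, CXCL1, CXCL5, CXCL3 and CXCL2 lie in this order in a cluster on human chromosome 4 (gene order of RefSeq, GRCh38.p14). Between them lie PF4V1 and PF4, platelet chemokines without the ELR motif, and PPBP, a platelet chemokine that gives rise to the ELR chemokine CXCL7. PF4V1 differed by -0.08, PF4 by -0.22 and PPBP by -0.35, and none of the 3 passed (limma adjusted p of 0.699, 0.346 and 0.296). PPBP lay at background in both groups. On the near side of CXCL8, ALB, AFP, AFM and RASSF6 had differences of -0.26 to -0.03, none of which passed, and 3 of them, all but ALB, lay at background. Past CXCL2, MTHFD2L differed by -0.41 (adjusted p = 0.142), and passed without vehicle replicate 3. Further on, EREG, the growth factor epiregulin, averaged 10.17 with ox-LDL and 10.85 with vehicle and was lower by a log2 difference of -0.68 (SE 0.07, limma adjusted p = 0.00451). EPGN, the related epigen, had a difference of -0.72 at background levels (adjusted p = 0.00464). On chromosome 2, DAW1, the gene after CCL20, was higher with ox-LDL (0.59, adjusted p = 0.0125). It lost its call without ox-LDL replicate 1 or 3, though the difference stayed between 0.56 and 0.66 with any 1 array left out. PID1, further along, was lower (-0.35, adjusted p = 0.0477), and lost its call without any 1 array other than vehicle replicate 3, with equal array medians, after a second quantile normalization and with the replicate block. On chromosome 17, the 5 measured neighbours of CCL2, among them CCL7, CCL8 and CCL11, had differences of -0.34 to 0.17, and 0 passed.

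**Figure D3:**
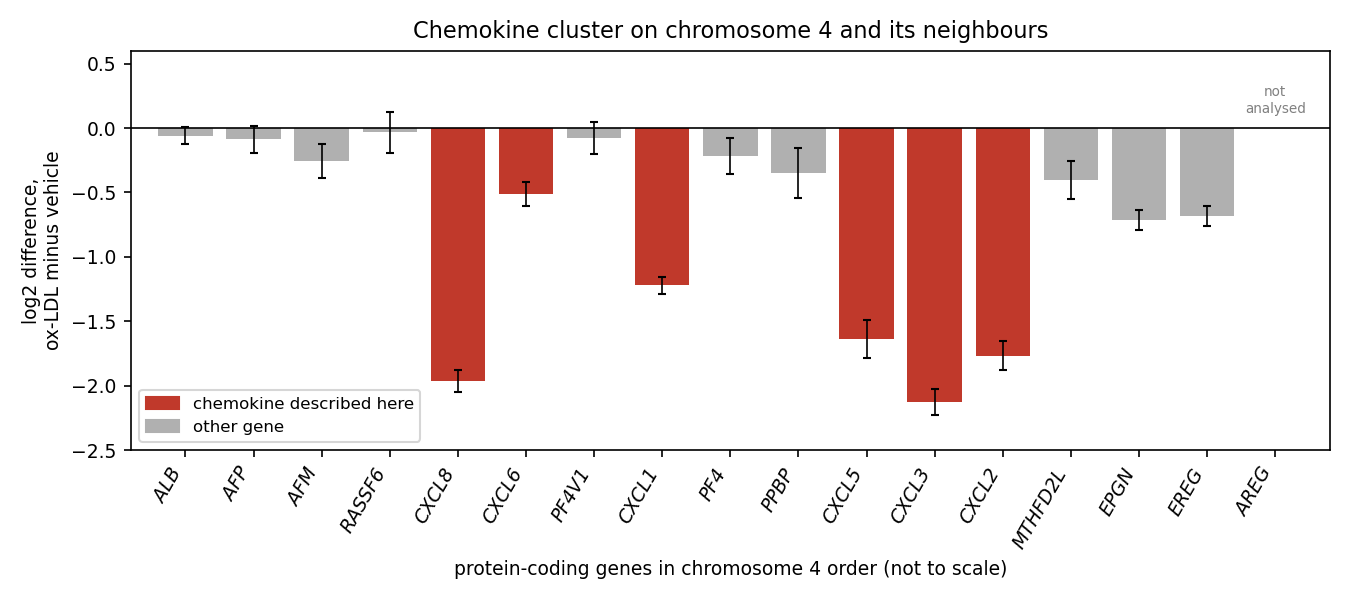
Log2 difference, ox-LDL minus vehicle (vertical axis), of the protein-coding genes of the chromosome 4 cluster in chromosome order, not to scale, with bars for the difference and whiskers for ± 1 SE. The 6 described chemokines (red) differ by -2.13 to -0.51, and PF4V1, PF4 and PPBP between them (grey) by -0.35 to -0.08.

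The other chemokines and the receptors did not move past the test. Of 31 other chemokines measured, 0 passed the limma test, 6 had an unadjusted p under 0.05, and 9 lay at background, with a median difference of -0.16. Over all probe sets, 6.77% passed and 20.2% lay at background in both groups. How many had an unadjusted p under 0.05 was not counted. CCL16 had the smallest p (difference -0.60, adjusted p = 0.0974) and was called without vehicle replicate 3, and CCL25, CCL1 and CCL19 followed with -0.31, -0.32 and -0.42. Of the 6 receptors, CXCR1, CXCR2, CCR6 and the scavenging receptor ACKR1 lay at background, with differences of 0.13, -0.27, 0.03 and -0.20. CCR2 differed by 0.01 and ACKR2, another scavenging receptor, by -0.40 (adjusted p = 0.134). None of the 6 passed the limma test, and 1 had an unadjusted p under 0.05. With array weights, 2 of the other chemokines and 1 receptor were called lower, while calls over all 21448 probe sets rose from 705 to 1822 lower.

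The next list held 14 measured inducing cytokines and their receptors, with the antagonist IL1RN, at background, counted among them. Of these, 4 were lower (28.6%), 0 were higher and the median difference was -0.10. Over all probe sets, 3.29% were lower and 3.48% higher, but the list was chosen with earlier results of these data known. The 4 were IL1A and IL1B, the interleukin 1 ligands, and IL6 and LIF, cytokines that signal through gp130. IL1B read 11.67, 11.62 and 11.73 on the ox-LDL arrays, against 13.13, 13.08 and 13.07 on the vehicle arrays. Its arrays were tight within each group, like those of CXCL1, and the difference was -1.42 (SE 0.07, limma adjusted p = 0.000317). IL1A differed by -1.67 (SE 0.11), IL6 by -1.54 (SE 0.13) and LIF by -0.98 (SE 0.07), and all 4 kept their call with any 1 array left out.

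Between the receptors and NF-kB, 1 of 13 measured signalling genes was lower, 0 were higher and the median difference was -0.03. Over all probe sets 3.29% were lower, and 1 gene of 13 does not set the list apart from that share. The gene was IRAK2, a kinase-like adaptor of the interleukin 1 and Toll-like receptors, with means of 7.58 ± 0.01 with ox-LDL and 8.89 ± 0.12 with vehicle (SD, n = 3 each; difference -1.32, limma adjusted p = 0.000847). TLR3, the receptor for double-stranded RNA, had a difference of 1.27 that did not pass (adjusted p = 0.0756), and was called higher without vehicle replicate 3, where it read 5.63 against 6.86 and 7.02 on the other vehicle arrays. CD14 and TLR2, which recognise bacterial products, had differences of -0.36 and -0.33 that did not pass, though TLR2 was called lower without vehicle replicate 3.

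Of 18 transcription factors known at chemokine promoters, 9 were lower and 1 was higher, with a median of -0.44. The 9 are 50% of the list, against 3.29% of all probe sets lower and 3.48% higher. This list too was chosen with earlier results of these data known, so the share is descriptive. EGR1, an immediate-early zinc finger factor, differed by -1.62 (SE 0.10), and NFKBIZ, a nuclear cofactor of NF-kB, by -1.58 (SE 0.11). CEBPB, a C/EBP factor, differed by -1.05 (SE 0.09) and NFKB2, an NF-kB subunit, by -0.67 (SE 0.07), and these 4 kept their call with any 1 array left out. RELB and NFKB1, also NF-kB subunits, FOSL1 and JUND of AP-1 and the stress factor ATF3 fell by 0.42 to 0.80 on the log2 scale, while JUN of AP-1 was higher by 0.49. RELA, the subunit most often found at these promoters, had a difference of -0.36 that did not pass (adjusted p = 0.0715). The number called lower was 4 or 5 when any array other than vehicle replicate 3 was left out, and 11 without vehicle replicate 3. Calls over all probe sets moved too, from 705 lower to 1220 without that array, and to as few as 212 with another array left out. JUN, NFKB1, FOSL1, JUND and ATF3 each lost their call without any 1 array other than vehicle replicate 3, JUND and ATF3 also with equal array medians and ATF3 also after cyclic loess or a repeated quantile normalization. RELB lost its call without any 1 ox-LDL array or vehicle replicate 2.

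Of 7 inhibitors of NF-kB, some of which are themselves NF-kB targets, 3 were lower, 0 were higher and the median was -0.32. The 3 are 42.9% of the list, again chosen with earlier results known, against 3.29% of all probe sets. TNIP1 differed by -1.19 (SE 0.07), TNFAIP3, the ubiquitin-editing enzyme A20, by -1.02 (SE 0.08), and NFKBIA, which holds NF-kB in the cytoplasm, by -0.84 (SE 0.07). All 3 kept their call with any 1 array left out, and NFKBIB, at -0.32, did not pass (adjusted p = 0.0787). Array weights raised the number called lower to 5, and that over all probe sets from 705 to 1822.

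Of 8 factors that destabilise or stabilise AU-rich mRNAs, 0 were lower and 1 was higher, with a median of 0.06. Over all probe sets 3.48% were higher, and 1 gene of 8 does not set the list apart from that share. ZFP36L2, which promotes decay of such mRNAs, averaged 10.79 with ox-LDL and 10.28 with vehicle (difference 0.51, SE 0.07, limma adjusted p = 0.00935), and lost its call when any 1 ox-LDL array was left out. ZFP36L1 and ZFP36, its relatives, had differences of 0.24 and -0.25, and the stabilising ELAVL1 had 0.17, and none of the 3 passed. Of 13 proteases and proteoglycans that cut or hold chemokines, 2 were lower and 2 were higher, with a median of 0.01. Each 2 are 15.4% of the list, against 3.29% of all probe sets lower and 3.48% higher. The metalloproteases MMP14 and MMP1 differed by -0.68 and -1.50, and the syndecans SDC2 and SDC1, whose heparan sulphate binds chemokines, by 0.79 and 0.48. MMP1 lost its call without ox-LDL replicate 3, SDC2 without ox-LDL replicate 1, and SDC1 without any 1 ox-LDL array. Without vehicle replicate 3, 4 of the list were lower, while calls over all probe sets rose from 705 to 1220 lower.

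Of 9 granulocyte growth factors and epithelial products known to act beside neutrophils, 6 were lower and 0 were higher, with a median of -0.94. The 6 are 66.7% of the list, against 3.29% of all probe sets. Because the list was chosen with earlier results of these data known, that share describes the list and tests nothing. CSF3, granulocyte colony-stimulating factor, read 9.36, 9.31 and 9.53 on the ox-LDL arrays, against 12.34, 12.20 and 12.25 on the vehicle arrays. The gap of 2.67 between the groups exceeded that of each of the 8 chemokines, and CSF3 was 7.29-fold lower (difference -2.87, SE 0.09, limma adjusted p = 8.56e-05). PTGS2, the inducible cyclooxygenase, differed by -4.13 (SE 0.19), LCN2, a siderophore-binding protein of neutrophils and epithelia, by -2.47 (SE 0.23), and ICAM1, the adhesion ligand of neutrophil integrins, by -0.94 (SE 0.10). IL6, also in the cytokine list, and IL32, with -0.44 (adjusted p = 0.0341), made up the 6, and IL32 lost its call without any 1 array other than vehicle replicate 3.

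**Figure D4:**
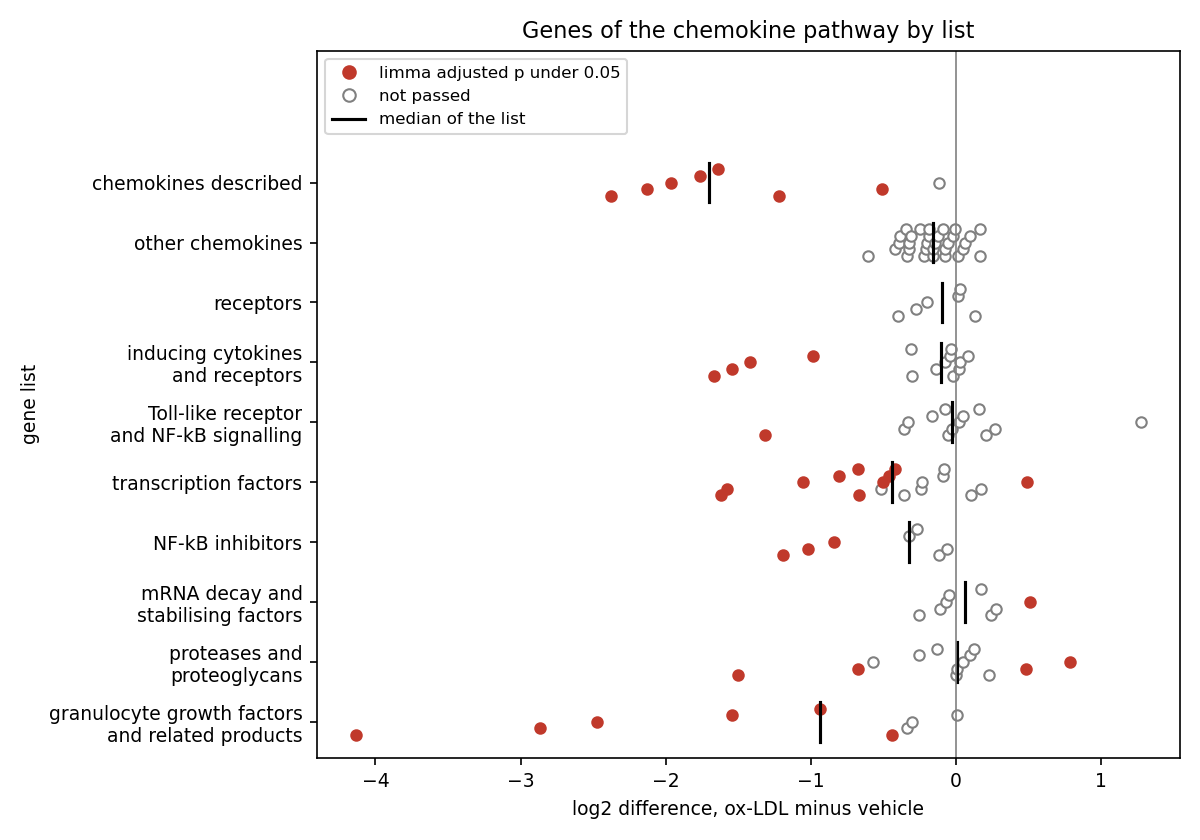
Log2 difference, ox-LDL minus vehicle (horizontal axis), of every measured gene of the 10 lists (rows), filled where the limma adjusted p was under 0.05 and open otherwise, with a black bar at each list's median. The described chemokines (median -1.70) and the granulocyte growth factors and related products (-0.94) lie furthest below 0, and the other chemokines have no filled point.

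The motif GGAATTTCC was also found in promoters of 75 measured genes outside the 8 chemokines. Of these, 6 were lower (8.0%) and 1 was higher, against 3.40% lower of the 14250 measured genes with a promoter in the table, and the medians were -0.03 and -0.02. Without vehicle replicate 3, 8 of the 75 were lower (10.7%), against 6.0% of the 14250. The 6, named after their values were seen, were TNFRSF9 (-1.95), NFKBIZ, ICAM1, NFKBIA, DUSP6 (-0.77) and NFKB1. The higher one was LIMCH1 (0.70), not called without ox-LDL replicate 1 or 3. Most genes with the motif had no call, and the wider NF-kB consensus had 4.28% of its 1214 measured genes lower, the 6 chemokines that match it included. Whether the motif had a part in any of these changes was not tested.

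Genes whose pattern over the 6 arrays was most like the mean of the 8 chemokines were sought among 125 named genes with a difference of at least 1 in size. GFPT1, the first enzyme of the hexosamine pathway (Pearson r = 0.999, difference -1.07), THBD, thrombomodulin (0.999, -2.53), WIPI1, an autophagy protein (0.998, -1.23), CSF3 (0.997) and TNFAIP3 (0.997) came first. Among the chemokines themselves, r with the mean of the others was 0.945 to 0.999 for the 7 that passed and 0.273 for CCL2. The 6 arrays fall into 2 groups, so these values mostly read the difference between the groups and describe likeness only.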

How the data were processed

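RNA of 3 ox-LDL and 3 vehicle samples of T24 cells was hybridised to 1-colour oligonucleotide arrays. The authors deposited log2 values made with RMA, per the submitters' processing notes; the sources used here give neither its version nor a genome build or scan batch. RMA equalises arrays and compresses values near background. Arrays have no depth, and their number limits the precision.

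Of 24350 probe sets, 2902 control probe sets were left out and 21448 tested. The platform annotation gave 1 symbol to 17709, several to 0 and none to 3739, and 0 symbols needed updating. Ox-LDL was compared with vehicle in limma 3.58.1 (R 4.3.3; lmFit, then eBayes). Two-sided p-values were adjusted over all 21448 by Benjamini-Hochberg and called under 0.05; the procedure was tested on simulated data. Errors are SD over arrays or limma's SE, and intervals cover 95%.

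The 8 chemokines and the gene lists were chosen with earlier results of these data known. Named genes were the 8, the 4 with the smallest p of each list (every gene of lists of at most 6), CSF3, PTGS2, IL1A, IL1B, EHMT2, the chromosomal neighbours and the 5 of most similar pattern; further genes complete a count of calls. Promoters are RefSeq's (GRCh38.p14), aligned with Biopython 1.88; protein sequences were not used here. Figures were drawn with matplotlib 3.10.9.

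Alternatives were cyclic loess, a repeated quantile normalization, arrays set to equal medians, dim probe sets left out, robust eBayes with an intensity trend, array weights, a replicate block, other thresholds and each array left out in turn. Same-numbered samples did not deviate together (correlations -0.006 to 0.030), so the numbers were not taken as pairs.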

Additional observations from a re-analysis of the deposited data

How the results depend on the processing

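CXCL1, CXCL2, CXCL3, CXCL5, CXCL8 and CCL20 passed under all 13 alternative fits, with highest adjusted p of 0.011, 0.0113, 0.01, 0.0235, 0.00776 and 0.019. CXCL6 lost its call with the replicate block (difference -0.51, adjusted p = 0.088). Its difference was -0.57 to -0.43 with 1 array left out, and it was called only without vehicle replicate 2 or 3. CCL2 changed sign with array weights (0.035, adjusted p = 0.829) and without vehicle replicate 3 (0.070), and ranged over -0.22 to 0.07 with 1 array left out. The count of chemokines called was 7, or 6 with the replicate block, without any ox-LDL array or vehicle replicate 1, at an adjusted p under 0.01 (1.18% of all probe sets lower) and by the study's own selection (1.31%).

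Over all probe sets, 1451 calls (705 lower) became 2649 with an intensity trend, 3962 (1822 lower) with array weights, 550 (306 lower) with the replicate block and 305 to 2670 (212 to 1220 lower) with 1 array left out, most without vehicle replicate 3. With the block, transcription factors had 5 lower and 0 higher, decay factors 0 higher and proteases and proteoglycans 1 higher. Proteases and proteoglycans had 4 lower after cyclic loess, the intensity trend and array weights, and decay factors 3 higher under the intensity trend and array weights. Toll-like receptor signalling had 1 higher under the intensity trend, and 2 lower and 1 higher with array weights. Array weights gave 2 lower other chemokines, 1 lower receptor and 5 lower NF-kB inhibitors. With 1 array left out, transcription factors had 4 to 11 lower and 0 to 1 higher, proteases and proteoglycans 1 to 4 lower and 0 to 2 higher, decay factors 0 to 1 higher, signalling genes 1 to 2 lower and 0 to 1 higher, and other chemokines 0 to 1 lower. The causes were not tested.

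Samples with the same number did not pair, so the replicate block is an alternative only. The mean of several probe sets was not run, since each chemokine has 1. Levels near background, as for CCL2 and for CCL20 with ox-LDL, limit what can be measured.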
